A study of Mus musculus with 12 samples.

Results

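Priming of mouse embryonic stem cells (ESCs) that lack MTCH2 is described here, as the change in gene expression between MTCH2-/- ESCs kept in the naïve state and the epiblast-like cells (EpiLCs) made from them. The members are the 6 libraries whose labels name Cre-treated cells, of 12 in the series. They are 3 libraries of MTCH2-/- ESCs and 3 of MTCH2-/- EpiLCs, and each EpiLC library was paired with the ESC library of the same clone number, 1 to 3. The naïve cells were C57BL/6 ESCs grown in 2i/LIF, which is the MEK inhibitor PD0325901, the GSK3 inhibitor CHIR99021 and leukemia inhibitory factor, and the EpiLCs were switched to N2B27 medium with Activin A, FGF2 and serum replacement on matrigel. Every line came from MTCH2 F/F mice, in which the gene is floxed, and was derived from epiblasts of embryonic day 3.5. The MTCH2-/- lines were made from the MTCH2 F/F clones with recombinant TAT-Cre, a protein that enters cells, and the other 6 libraries are untreated MTCH2 F/F ESCs (3) and EpiLCs (3). Loss of MTCH2 and exposure to Cre cannot be told apart in these libraries. Each genotype is represented by 3 clonal lines, and the ESCs had been maintained on feeder fibroblasts before they were seeded without feeders for priming.

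Naïve ESCs resemble the epiblast before implantation, and EpiLCs resemble the epiblast just after it. The exit from the naïve state dismantles a circuit of transcription factors that includes Nanog, Klf4, Esrrb and Tfcp2l1 and switches on formative genes such as Otx2, Pou3f1 and Fgf5 together with the de novo DNA methyltransferases. In 2i/LIF the MEK inhibitor blocks ERK signalling, the GSK3 inhibitor stabilises beta-catenin and LIF activates STAT3, so the change of medium removes all of these signals at once and adds FGF2 and Activin A. MTCH2 belongs to the mitochondrial carrier family but sits in the outer membrane of the organelle, and the study asked whether it bears on mitochondrial fusion and on the exit from the naïve state.

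Expression is given as CPM, the count of a gene scaled by TMM to a common library total, in the order of lines 1, 2 and 3. A gene rose or fell where edgeR's paired quasi-likelihood test gave an adjusted p under 0.05, and errors of log2 fold changes are standard errors (SE) of that fit. Mtch2 stood at 2.19, 1.58 and 1.82 CPM in ESCs and 2.18, 1.52 and 1.93 CPM in EpiLCs of the MTCH2-/- lines, against means of 177 and 122 CPM in MTCH2 F/F ESCs and EpiLCs, so that the level in every library fitted its label. It did not change on priming without MTCH2 in a way the test could see (log2 fold change 0.01 ± 0.16, adjusted p = 0.97). The 6 libraries held 18439974 to 24068523 counts each. Libraries of the same number deviated together from their group means (correlation across genes 0.42 to 0.57 in the 3 pairs, against at most −0.01 between different numbers). Deviations from a mean of 3 libraries sum to 0. Values between different numbers were therefore pulled below 0 by construction where those of the same number lay above it. The number marks the parental clone, so the pairing comes from the design. Line 1 stood apart from lines 2 and 3, from which it differed by a chi-square test of counts in 43.5% to 48.2% of genes in ESCs, against 31.7% between lines 2 and 3, and line 3 had low Y-linked expression, with a summed level of 26.4 CPM in ESCs and 27.2 CPM in EpiLCs against 150 to 227 CPM in the other lines.

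In the absence of MTCH2, priming still changed many genes by 2-fold or more in the fit, in both directions. Of 17369 genes tested, 1090 rose (6.28%) and 1063 fell (6.12%) by at least 2-fold, which are 12.4% in all. With no fold minimum, 4647 rose (26.8%) and 4949 fell (28.5%), or 55.2% in either direction, and the 3 ESC and 3 EpiLC libraries did not overlap in 8377 genes (48.2%). Among the genes past 2-fold, 1079 of 1090 risen and 1058 of 1063 fallen genes moved the same way in each of the 3 lines. The same 3 lines gave the calls, so this agreement follows in large part from the selection. In lines 1, 2 and 3, the median log2 difference between the paired libraries was 0.98, 0.98 and 0.96 for the risen genes. For the fallen genes it was −1.07, −1.11 and −0.95, both computed on log2(CPM + 1). On that scale, 360 of the risen and 392 of the fallen genes changed by at least 2-fold in each line. Most genes past 2-fold were weakly expressed. Their median was 2.04 CPM among risen and 3.39 CPM among fallen genes, against 16.7 CPM for all genes tested. Changes past 8-fold were seen in 111 risen and 85 fallen genes. The median log2 fold change of all genes was −0.02.

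The gene that rose the most among those at 10 CPM or more was Myrf, which encodes a membrane-bound transcription factor known from oligodendrocytes. It stood at 2.31, 1.72 and 1.29 CPM in ESCs and 101, 107 and 80.1 CPM in EpiLCs, an increase of 53.2-fold (log2 fold change 5.73 ± 0.09, adjusted p = 1.3e-20). Line 3 was the lowest in both states. The genes with the largest changes were picked only among those whose ESC and EpiLC libraries did not overlap. Myrf (ENSMUSG00000036098) lies on chromosome 19 of GRCm38 from 10208272 to 10240748. Enpp3, an ectonucleotidase, stood at 2.71, 2.23 and 3.16 CPM in ESCs and 66.4, 73.4 and 54.1 CPM in EpiLCs (log2 fold change 4.59 ± 0.12, adjusted p = 1.4e-13). The lines lay close together within each state.

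Several other risen genes encode proteins of the cell surface or of transport. Adam23, a membrane protein of the ADAM family that binds integrins, rose from 4.62, 4.79 and 5.14 to 79.1, 97.4 and 93.8 CPM (log2 fold change 4.21 ± 0.14, adjusted p = 1.2e-08). The endocytic receptor Lrp2, also known as megalin, rose from 25.8, 19.6 and 24.1 to 262, 254 and 246 CPM (log2 fold change 3.46 ± 0.13, adjusted p = 2.2e-06). The lactate exporter Slc16a3 rose from 3.16, 3.77 and 3.16 to 37.2, 49.4 and 38.6 CPM (log2 fold change 3.63 ± 0.08, adjusted p = 6.9e-18). Lack of overlap between the states was part of the rule by which these genes were picked. Slc27a2, which activates and imports fatty acids, rose from 4.42, 2.98 and 2.09 to 38.1, 40.8 and 30 CPM, and Crmp1, a cytosolic protein of growing axons, rose by 3.80 ± 0.14 on the log2 scale. Pla2g7, the platelet-activating factor acetylhydrolase, had a level in MTCH2-/- cells that MTCH2 F/F cells did not reach in either state: it rose from 3.08, 2.56 and 2.68 to 23.9, 29.1 and 39.8 CPM (log2 fold change 3.43 ± 0.22, adjusted p = 5.3e-07), while its means in MTCH2 F/F cells were 0.328 and 0.324 CPM.

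Among genes at 10 CPM or more, the largest fall was that of Cdx1, a caudal homeobox gene and a known target of beta-catenin. Cdx1 stood at 27.9, 39.1 and 28.1 CPM in ESCs and 0.847, 0.42 and 0.82 CPM in EpiLCs (log2 fold change −5.46 ± 0.16, adjusted p = 3.5e-15), so that every line lost nearly all of its transcript. Lcp1, the actin-bundling protein plastin, fell from 29.9, 26.9 and 20.9 to 1.38, 1.15 and 1.4 CPM (log2 fold change −4.29 ± 0.13, adjusted p = 2.7e-16). S100a13, a calcium-binding protein, fell from 104, 62 and 51.1 to 5.26, 3.72 and 3.72 CPM, and here line 1 was higher than the other lines in both states (log2 fold change −4.09 ± 0.09, adjusted p = 2.1e-17). The zinc finger gene Gata2 showed the same order of lines, with 92, 55.2 and 50.1 CPM in ESCs and 7.57, 5.77 and 5.4 CPM in EpiLCs (log2 fold change −3.38 ± 0.09, adjusted p = 6.0e-17). Trpm1, a cation channel of melanocytes and retina, fell from 173, 93.5 and 70.3 to 11.8, 7.71 and 7.33 CPM (log2 fold change −3.62 ± 0.10, adjusted p = 1.9e-12), again with line 1 on top.

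Of the other fallen genes in this group, Slit2, a secreted guidance cue, fell from 68.3, 87.6 and 77.1 to 6.77, 7.92 and 7.96 CPM (log2 fold change −3.36 ± 0.07, adjusted p = 4.8e-18). The ETS factor Elf3 fell from 154, 208 and 177 to 21.3, 19.8 and 22.2 CPM (log2 fold change −3.07 ± 0.15, adjusted p = 1.7e-05). Calcoco2, an autophagy receptor, fell from 95.6, 136 and 105 to 10.3, 15.4 and 15.4 CPM (log2 fold change −3.03 ± 0.08, adjusted p = 1.0e-14). These genes, too, were picked only among those without overlap between the states. The log2 fold changes of Lrrc15, Ubd, Accsl, Tbx18, Cyp1a1 and Slc30a2 were between −3.82 and −2.83. Among them Ubd encodes a ubiquitin-like modifier, Cyp1a1 a cytochrome P450 that the aryl hydrocarbon receptor induces, and Slc30a2 a zinc transporter.

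**Figure D1:**
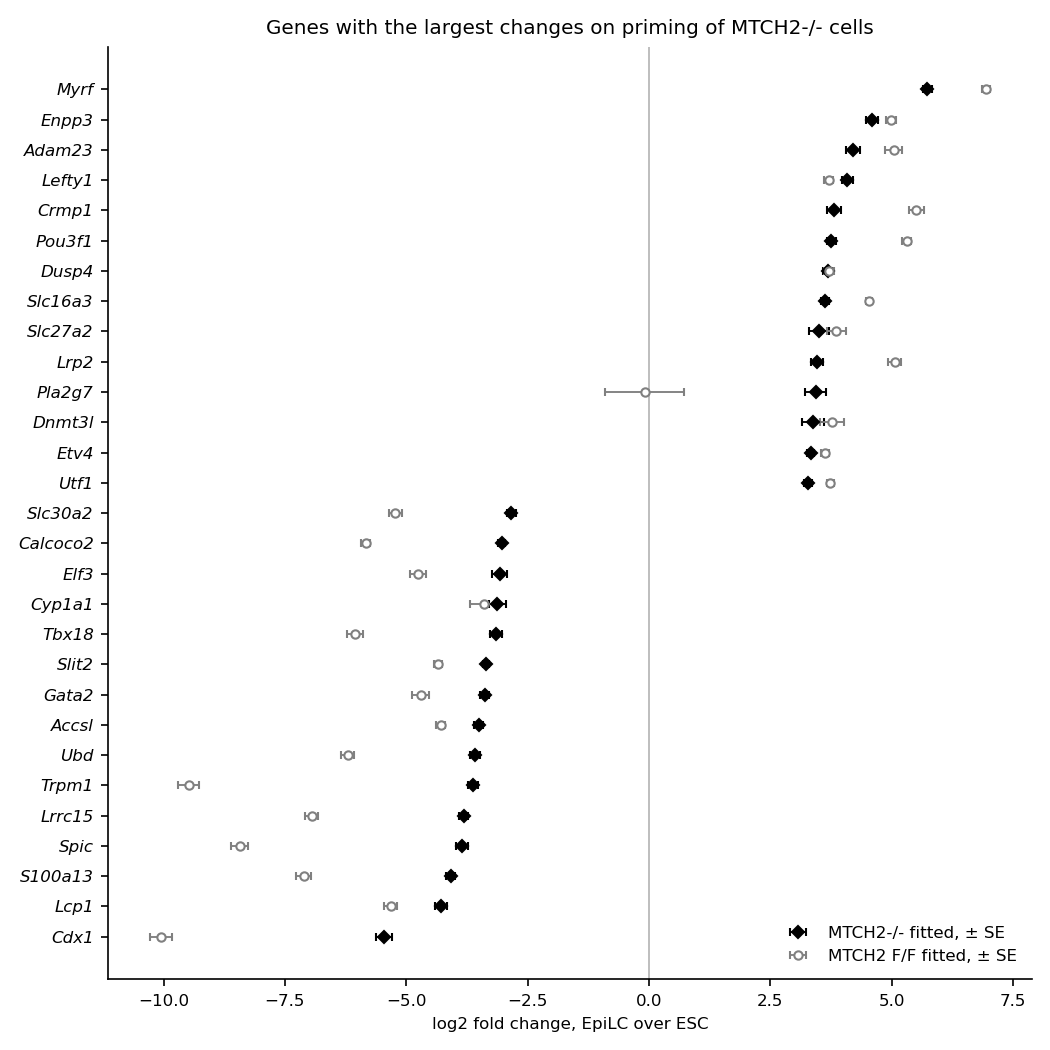
Fitted log2 fold changes on priming of 14 risen and 15 fallen genes among those with the largest changes in MTCH2-/- cells (x axis, log2; bars, SE; n = 3 paired lines), with the values of MTCH2 F/F cells as open grey symbols. Myrf leads the risen genes at 5.73 and Cdx1 the fallen genes at −5.46, and most grey symbols lie further from 0 than the black ones.

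The EpiLC markers used to check the labels all rose in MTCH2-/- cells: Fgf5, Otx2, Pou3f1, Dnmt3b, Dnmt3a, Zic2 and Sox3. Of the 7 ESC markers, Nanog, Klf4, Tfcp2l1, Zfp42, Prdm14 and Tbx3 fell and Esrrb did not pass the test. In the wider list of formative and primed genes, 26 of 31 measured members rose, 1 fell and 4 did not pass, with a median log2 fold change of 1.51. This list, which holds Myrf, and the other lists were chosen with earlier results of these data known. Their counts are therefore not independent of those results. Of the 32 members, 31 passed the filter on low counts. The counts of each list stand against 26.8% of all genes that rose and 28.5% that fell.

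Pou3f1, a POU-domain factor of the formative epiblast, was even over the lines, at 2.84, 2.79 and 2.95 CPM in ESCs and 38, 37.2 and 40.8 CPM in EpiLCs (log2 fold change 3.75 ± 0.09, adjusted p = 2.7e-17). Otx2, the homeobox factor that directs enhancers of the primed state, stood at 6.24, 11.1 and 8.84 CPM in ESCs and 42.3, 48 and 39.3 CPM in EpiLCs (log2 fold change 2.33 ± 0.11, adjusted p = 3.5e-09). Fgf5, the ligand by which the primed epiblast is commonly recognised, stood at 1.99, 0.419 and 0.911 CPM in ESCs and 12.3, 6.56 and 6.18 CPM in EpiLCs (log2 fold change 2.91 ± 0.20, adjusted p = 1.5e-09). The libraries of Fgf5 did not overlap, but the levels were low and line 1 was the highest in both states. Tcf15, a bHLH factor linked to the exit from the naïve state, rose from 0.486, 1.02 and 0.964 to 8.78, 10.2 and 8.01 CPM (log2 fold change 3.48 ± 0.20, adjusted p = 1.0e-11). Sox3, a SOXB1 factor of the neural plate, rose from 0.81, 0.791 and 0.482 to 4.95, 4.67 and 4 CPM (log2 fold change 2.69 ± 0.19, adjusted p = 2.9e-10). Nodal, the ligand that sustains the epiblast, was the member that fell, from 128, 153 and 152 to 105, 92.8 and 99.9 CPM (log2 fold change −0.54 ± 0.11, adjusted p = 0.0056).

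The list of naïve genes moved the other way, with 18 of 26 members falling, 6 rising and a median of −0.55. Over the alternative settings 12 to 19 members fell and 5 to 6 rose. Spic, an ETS factor of naïve ESCs, fell the most, from 17.9, 26.6 and 18.6 to 1.07, 2.26 and 1.11 CPM (log2 fold change −3.85 ± 0.12, adjusted p = 1.1e-15). Tfcp2l1, a factor downstream of both LIF and beta-catenin, fell from 1470.5, 1665 and 1716 to 429, 380.4 and 450.2 CPM (log2 fold change −1.95 ± 0.19, adjusted p = 0.0011). Nearly all of the Spic transcript was lost, whereas Tfcp2l1 kept a high level in each line. Dppa3, a maternal factor also known as Stella, fell from 4.46, 4.79 and 2.84 to 1.02, 1.1 and 0.917 CPM (log2 fold change −1.98 ± 0.21, adjusted p = 1.0e-07). Prdm14, which represses the de novo methyltransferases, fell from 47.1, 63.8 and 56.5 to 23.9, 26.7 and 25.8 CPM (log2 fold change −1.12 ± 0.07, adjusted p = 4.2e-10). Tbx3, a T-box factor of the naïve circuit, fell from 429.7, 419.8 and 389.9 to 225, 229.9 and 235 CPM (log2 fold change −0.84 ± 0.25, adjusted p = 0.049).

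Nanog, Klf4 and Esrrb had smaller log2 fold changes than Tfcp2l1. Nanog stood at 620.1, 821 and 752 CPM in ESCs and 340.4, 410.4 and 381 CPM in EpiLCs (log2 fold change −0.95 ± 0.16, adjusted p = 0.0076). Klf4 stood at 381, 520.1 and 462 CPM in ESCs and 259.6, 297 and 276 CPM in EpiLCs (log2 fold change −0.70 ± 0.21, adjusted p = 0.048), with no overlap between the states. Esrrb, an orphan nuclear receptor, stood at 1038, 1015 and 1056 CPM in ESCs and 751, 723 and 727 CPM in EpiLCs (log2 fold change −0.50 ± 0.18, adjusted p = 0.084). The libraries of Esrrb did not overlap either, and all lines were lower after priming, but the gene did not pass the test. The calls for both rest on the settings: without the replicate block, Klf4 lost its call (adjusted p = 0.064) and Esrrb passed (adjusted p = 0.046), and Klf4 also lost its call when any 1 MTCH2-/- line was left out (adjusted p = 0.11 to 0.18). Over 15 alternatives the adjusted p of Klf4 ran from 5.9e-09 to 0.18 and that of Esrrb from 3.8e-09 to 0.24, while the log2 fold changes stayed between −0.78 and −0.65 and between −0.52 and −0.48. Zfp42, the marker known as Rex1, fell by 0.36 on the log2 scale (SE 0.05, adjusted p = 4.9e-06).

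Members that rose against the direction of the naïve list were Gbx2, Dppa4, Manba, Dppa2, Fgf4 and Klf5. Gbx2, a homeobox gene that STAT3 induces, rose from 3.16, 5.77 and 5.68 to 9.94, 14.7 and 14.9 CPM (log2 fold change 1.45 ± 0.12, adjusted p = 1.3e-09). Dppa4, a chromatin protein shared by naïve and primed cells, rose from 35.1, 38.3 and 37.4 to 68.3, 75.6 and 70.1 CPM (log2 fold change 0.95 ± 0.05, adjusted p = 3.4e-12). Manba, a lysosomal beta-mannosidase, rose by 0.74 ± 0.09. These members rose in each of the 3 lines.

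Genes common to both states of pluripotency mostly rose, with 16 of 19 members rising, 2 falling and a median of 0.58. Utf1, a chromatin-bound factor of pluripotent cells, rose from 24.8, 29 and 27.1 to 257, 297 and 225 CPM (log2 fold change 3.27 ± 0.08, adjusted p = 1.1e-11). Lin28a, which blocks the maturation of let-7, rose from 65.5, 72.5 and 86.9 to 281, 312 and 276 CPM (log2 fold change 1.96 ± 0.08, adjusted p = 2.1e-08). Myc rose from 5.15, 5.63 and 7.18 to 30.1, 40.8 and 36.9 CPM (log2 fold change 2.59 ± 0.12, adjusted p = 1.0e-10). These genes rose in each of the 3 lines. Pou5f1, the gene of Oct-4, was nearly level at 701, 900.5 and 838 CPM in ESCs and 655, 818 and 749.8 CPM in EpiLCs, and its fall of 0.13 on the log2 scale (SE 0.03, adjusted p = 0.0015) was no longer called without the replicate block (adjusted p = 0.24, with 7.8e-04 to 0.24 and log2 fold changes of −0.16 to −0.11 over 15 alternatives). Sox2 stood at 295, 358 and 337 CPM in ESCs and 346, 360.2 and 331 CPM in EpiLCs, with overlapping libraries (log2 fold change 0.07 ± 0.11, adjusted p = 0.61). In bulk RNA, fewer cells of a type and less RNA per cell cannot be told apart, which applies to every level given here.

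**Figure D2:**
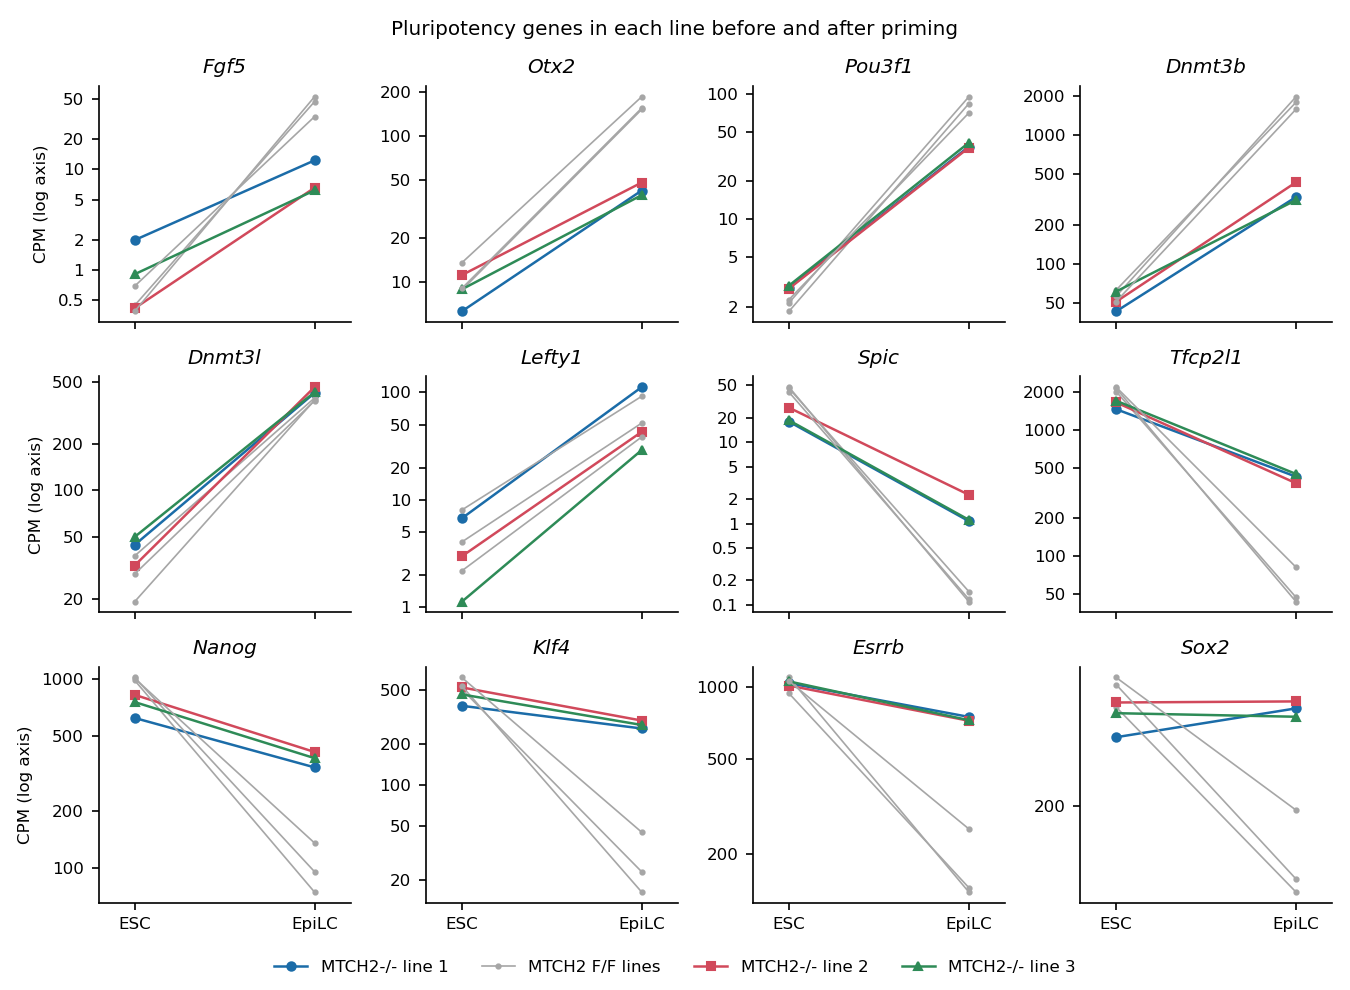
Expression of 12 pluripotency and priming genes in ESCs and EpiLCs (y axis, CPM on a log scale), with 1 line per clone number, coloured for MTCH2-/- and grey for MTCH2 F/F cells. Fgf5, Otx2, Pou3f1, Dnmt3b, Dnmt3l and Lefty1 rise in every MTCH2-/- line, Spic and Tfcp2l1 fall steeply, Nanog, Klf4 and Esrrb lie lower after priming by smaller amounts, and Sox2 lies between 295 and 360.2 CPM in the MTCH2-/- lines.

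Genes that report ERK signalling rose together in MTCH2-/- cells after the MEK inhibitor was withdrawn. Of 23 measured members, 17 rose and 3 fell, with a median of 0.83, and the same number rose under every alternative setting tried. Feedback inhibitors of the pathway were among the members that rose the most: the phosphatase Dusp4 stood at 4.05, 2.37 and 2.52 CPM in ESCs and 48.5, 35.3 and 30.6 CPM in EpiLCs (log2 fold change 3.68 ± 0.10, adjusted p = 8.2e-17). Dusp6, which dephosphorylates ERK in the cytoplasm, stood at 12, 11.6 and 15.1 CPM in ESCs and 80.8, 90.4 and 95.5 CPM in EpiLCs (log2 fold change 2.79 ± 0.06, adjusted p = 6.9e-18). Spry4, an inhibitor of signalling from receptor tyrosine kinases, stood at 5.63, 5.3 and 5.84 CPM in ESCs and 45.3, 51.4 and 57.3 CPM in EpiLCs (log2 fold change 3.19 ± 0.10, adjusted p = 2.5e-14). Every line moved by a like amount in these genes. Etv4, an ETS factor induced by FGF, rose from 7.66, 7.91 and 11.3 to 81.1, 89.1 and 97.3 CPM (log2 fold change 3.33 ± 0.07, adjusted p = 4.8e-18).

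Not every ERK target rose. Fos, an immediate early gene, fell from 54.2, 33.8 and 51.4 to 38.2, 27.7 and 37.8 CPM with overlapping libraries (log2 fold change −0.42 ± 0.06, adjusted p = 1.3e-05). The ETS factor Ets2 fell from 37.6, 46.3 and 45.3 to 25.6, 29.2 and 32 CPM (log2 fold change −0.57 ± 0.06, adjusted p = 1.0e-07). Errfi1, an inhibitor of the EGF receptor, fell by 0.28 ± 0.07 (adjusted p = 0.0015), a call that was lost without the replicate block (adjusted p = 0.12, with 1.8e-04 to 0.12 over 15 alternatives). Ier2, Ier3 and the immediate early gene Egr1 did not pass the test.

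Upstream of these targets, 6 of 18 measured FGF ligands, receptors and cofactors rose (33.3%) and 4 fell (22.2%), near the shares of all genes, with a median of −0.02. Fgf15, a ligand of the developing neural tube, rose from 0.203, 0.186 and 0.161 to 3.79, 3.25 and 2.51 CPM (log2 fold change 4.08 ± 0.28, adjusted p = 1.6e-10). The receptor Fgfr2 rose from 5.11, 3.02 and 4.45 to 16.2, 13.2 and 14.7 CPM (log2 fold change 1.81 ± 0.14, adjusted p = 2.5e-09), and the secreted carrier Fgfbp1 rose from 3.36, 2.65 and 5.25 to 15.6, 14.6 and 17.5 CPM (log2 fold change 2.11 ± 0.13, adjusted p = 4.0e-11). Both sets of libraries were apart. The ligand Fgf10 fell from 7.17, 9.44 and 6 to 2.85, 3.62 and 3.33 CPM (log2 fold change −1.20 ± 0.16, adjusted p = 1.6e-06), and Flrt3, a membrane protein that promotes FGF signalling in Xenopus, fell (log2 fold change −1.004 ± 0.12, adjusted p = 3.1e-07).

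Targets of beta-catenin were measured after withdrawal of the GSK3 inhibitor. Of 21 measured members, 6 fell (28.6%), 7 rose (33.3%) and 8 did not pass, shares near the 28.5% and 26.8% of all genes, and the median was 0.01. The members that fell did so by more than 2-fold, and besides Cdx1 these were Nkx1-2, Sp5, Cdx2, Rnf43 and Axin2. Sp5, a zinc finger gene that beta-catenin activates directly, stood at 2.8, 4.98 and 3.54 CPM in ESCs and 0.178, 0.262 and 0.241 CPM in EpiLCs (log2 fold change −4.01 ± 0.27, adjusted p = 1.3e-10). Nkx1-2, a homeobox gene, stood at 1.38, 3.77 and 2.41 CPM in ESCs and 0.0891, 0.105 and 0.241 CPM in EpiLCs (log2 fold change −4.03 ± 0.33, adjusted p = 2.2e-09). Both were near 0 in every EpiLC library. Axin2, the general feedback inhibitor of the pathway, kept more of its level, with 43.4, 49.2 and 47.1 CPM in ESCs and 12.5, 13.4 and 12.5 CPM in EpiLCs (log2 fold change −1.86 ± 0.06, adjusted p = 3.5e-15). In the other direction, Lef1, a DNA-binding partner of beta-catenin, rose from 2.19, 1.21 and 1.39 to 17.2, 14.2 and 15.1 CPM (log2 fold change 3.26 ± 0.14, adjusted p = 1.1e-13), and the cyclin Ccnd2 rose from 3.57, 4.47 and 5.95 to 18.6, 22.8 and 29.7 CPM (log2 fold change 2.35 ± 0.10, adjusted p = 9.3e-14).

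Targets of LIF and STAT3 fell in part, with 10 of 20 members falling, 7 rising and a median of −0.17. The kinase Jak3 fell from 104, 114 and 108 to 25.1, 26.9 and 34.5 CPM (log2 fold change −1.92 ± 0.07, adjusted p = 2.9e-13). Bcl3, a nuclear cofactor of NF-kappaB, fell from 30.8, 54.2 and 40.4 to 9.45, 13.1 and 10.4 CPM (log2 fold change −1.91 ± 0.08, adjusted p = 1.1e-13). Socs3, the feedback inhibitor of the pathway, fell by 0.77 ± 0.06 on the log2 scale. Members that rose besides Gbx2 included Spry2, which stood at 114, 137 and 129 CPM in ESCs and 169, 189 and 173 CPM in EpiLCs (log2 fold change 0.48 ± 0.05, adjusted p = 4.9e-08), and the kinase Pim3 (log2 fold change 0.48 ± 0.05, adjusted p = 4.9e-08). Without line 1 only 4 members of this list rose.

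**Figure D3:**
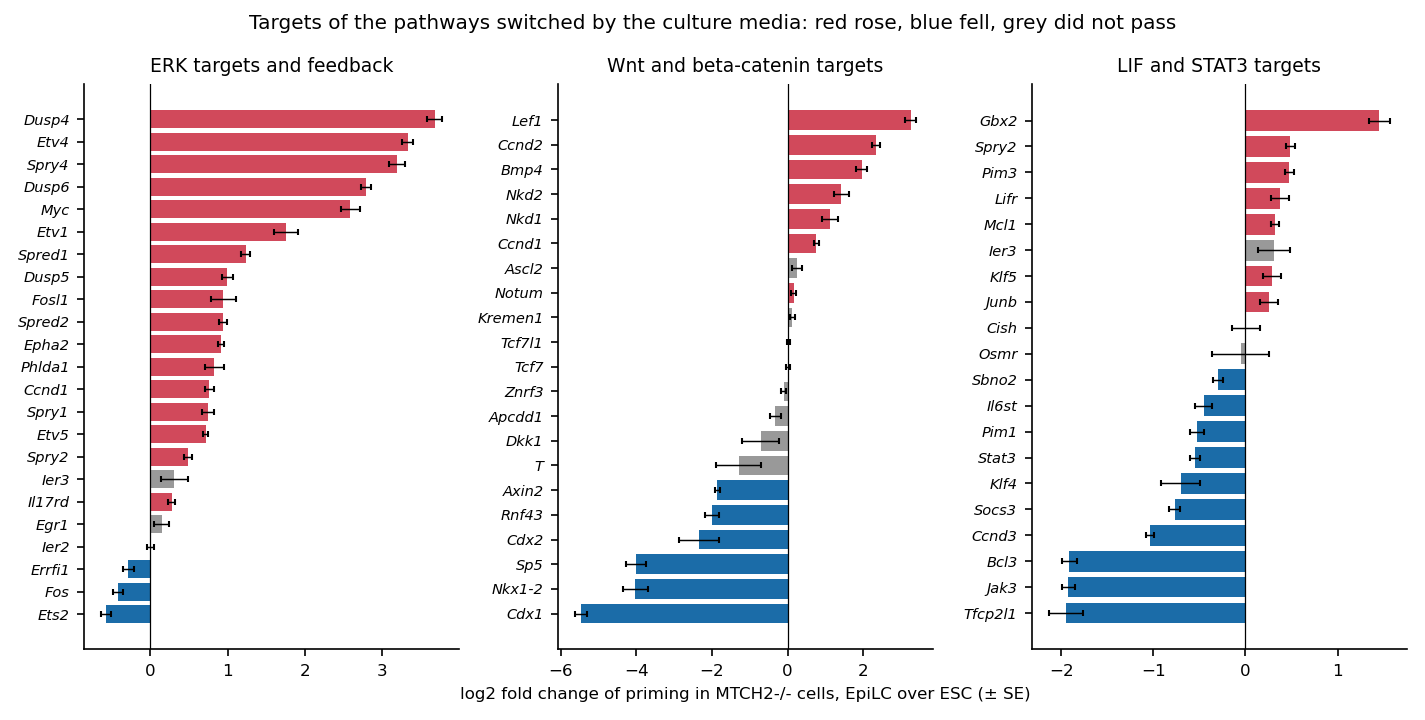
Fitted log2 fold changes on priming of MTCH2-/- cells (bars ± SE, n = 3 paired lines) for the measured members of the ERK (23), beta-catenin (21) and STAT3 (20) lists, with risen members in red, fallen in blue and those that did not pass in grey. The ERK list holds mostly red bars, led by Dusp4 at 3.68, while the beta-catenin list runs from Cdx1 at −5.46 to Lef1 at 3.26.

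Promoter windows of 4 of these genes are printed to show the sequence in front of Sp5 and Nkx1-2, which fell, and Dusp6 and Spry2, which rose. They are from RefSeq on GRCm38.p6, run from 250 bases before to 50 bases after the start of the gene and are written 5′ to 3′ on the strand of the gene, in lower case with motif matches in capitals. The motifs searched on both strands were the ETS core CCGGAA, the cyclic AMP response element TGACGTCA, the E-box CACGTG, the TCF motif CTTTGAT, the AP-1 site TGANTCA, the STAT site TTCNNNGAA and the CArG box, and none of the matches printed overlaps another. They occur in 14.9%, 1.79%, 7.15%, 3.73%, 7.81%, 8.30% and 1.63% of 32851 promoter windows, in that order. Windows were found for 13 of the 17 named genes of the ERK, beta-catenin and STAT3 lists. The windows are chr2:70474673-70474972 (+) for Sp5, chr7:132599588-132599887 (−) for Nkx1-2, chr10:99262981-99263280 (+) for Dusp6 and chr14:105896770-105897069 (−) for Spry2.
Sp5: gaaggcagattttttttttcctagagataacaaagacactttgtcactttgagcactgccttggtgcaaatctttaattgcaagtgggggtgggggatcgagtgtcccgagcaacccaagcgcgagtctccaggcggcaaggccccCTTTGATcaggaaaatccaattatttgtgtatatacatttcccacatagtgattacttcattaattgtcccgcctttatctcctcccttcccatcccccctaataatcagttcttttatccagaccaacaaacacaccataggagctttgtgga
Nkx1-2: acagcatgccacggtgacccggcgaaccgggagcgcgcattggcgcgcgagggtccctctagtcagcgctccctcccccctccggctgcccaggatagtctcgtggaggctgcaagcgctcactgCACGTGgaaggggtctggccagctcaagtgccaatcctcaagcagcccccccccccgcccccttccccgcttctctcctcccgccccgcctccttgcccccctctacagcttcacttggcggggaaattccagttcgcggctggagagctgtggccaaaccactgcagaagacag
Dusp6: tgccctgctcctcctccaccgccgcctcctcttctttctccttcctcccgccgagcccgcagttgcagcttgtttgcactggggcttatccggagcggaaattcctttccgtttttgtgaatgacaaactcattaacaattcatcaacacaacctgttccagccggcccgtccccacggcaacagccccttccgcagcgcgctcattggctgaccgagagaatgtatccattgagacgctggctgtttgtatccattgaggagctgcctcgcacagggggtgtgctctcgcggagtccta
Spry2: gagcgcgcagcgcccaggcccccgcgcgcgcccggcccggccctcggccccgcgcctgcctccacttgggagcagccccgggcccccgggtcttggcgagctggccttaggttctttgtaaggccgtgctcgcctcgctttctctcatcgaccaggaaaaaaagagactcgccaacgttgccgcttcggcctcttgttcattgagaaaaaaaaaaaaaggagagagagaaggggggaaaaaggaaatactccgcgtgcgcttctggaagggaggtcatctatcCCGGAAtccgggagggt
The capitals mark a TCF motif in Sp5 at bases 147 to 153 of the window, an E-box in Nkx1-2 at bases 126 to 131 and an ETS core in Spry2 at bases 284 to 289, and Dusp6 holds none of these letters in its window. Of the 13 genes with a window, 6 held at least 1 of the motifs and 7 held none. Genes were counted under the list through which they were named. The ETS core was in 0 of 4 ERK genes. The TCF motif was in 1 of 3 beta-catenin genes and the STAT site in 0 of 6 STAT3 genes. Spry2, which holds the ETS core, was counted under STAT3 but is also a member of the ERK list. A match describes the sequence and shows no binding.

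Genes of the Nodal and Activin pathway, which the primed medium stimulates with Activin A, rose in 10 and fell in 6 of 20 measured members, with a median of 0.07. Without the replicate block 6 rose. The secreted Nodal inhibitors Lefty1 and Lefty2, which lie near each other on chromosome 1, were the members that rose the most. Lefty1 stood at 6.73, 2.98 and 1.12 CPM in ESCs and 112, 43 and 29 CPM in EpiLCs (log2 fold change 4.08 ± 0.11, adjusted p = 9.6e-16). Lefty2 stood at 30.8, 31.4 and 10.1 CPM in ESCs and 287, 182 and 119 CPM in EpiLCs (log2 fold change 3.04 ± 0.21, adjusted p = 2.6e-04). Line 1 was the highest and line 3 the lowest after priming in both genes, and the EpiLC libraries of line 1 and line 3 differed by more than 2-fold. The inhibitory Smad7 and the corepressor Skil rose by 0.91 ± 0.04 and 0.999 ± 0.08.

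The members of the Nodal list that fell were Pcsk6, Inhbb, Smad3, Nodal, Furin and Pmepa1. Pcsk6, a convertase that processes the Nodal precursor, fell from 218, 265 and 258 to 71.2, 79.3 and 86.9 CPM (log2 fold change −1.64 ± 0.05, adjusted p = 5.2e-14). Smad3, a receptor-activated SMAD, fell from 43.6, 44.4 and 45.5 to 30.8, 28.6 and 30.8 CPM (log2 fold change −0.56 ± 0.06, adjusted p = 4.4e-08). Inhbb, a subunit of activins, fell by 0.62 ± 0.15, and this call was lost without the replicate block (adjusted p = 0.077, with 5.7e-07 to 0.077 over 15 alternatives). None of the groups of libraries overlapped in Pcsk6 or Smad3. Among other members, the coreceptor Tdgf1 and Foxh1, a DNA-binding partner of SMADs, rose by 0.37 ± 0.07 and 0.41 ± 0.06, and Gdf3 and the receptors Acvr1b and Acvr2b did not pass.

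In the BMP list 6 of 19 measured members rose (31.6%) and 5 fell (26.3%), near the shares of all genes, with a median of 0.03. Without the replicate block, with DESeq2 and without line 2, 3 rose, and 3 fell under a stricter filter on low counts. The ligand Bmp4 rose from 2.11, 2.28 and 3 to 8.82, 8.6 and 11.3 CPM (log2 fold change 1.96 ± 0.14, adjusted p = 1.9e-10), and the ligand Bmp7 fell from 69.8, 44 and 57.1 to 33.6, 23.6 and 28.1 CPM (log2 fold change −0.999 ± 0.07, adjusted p = 2.3e-10). Id3, a target of BMP that sequesters bHLH factors, fell from 11.1, 18.4 and 16.9 to 6.59, 10.5 and 8.35 CPM (log2 fold change −0.86 ± 0.12, adjusted p = 2.6e-06).

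In the Notch pathway 6 of 18 measured members rose (33.3%) and 7 fell (38.9%), against 26.8% and 28.5% of all genes, with a median of 0.02, and 4 fell without the replicate block and with DESeq2. Of the ligands, Dll1, Dll3 and Jag2 rose and Dll4 and Jag1 did not pass the test. Dll3, which acts within the cell in cis, rose from 0.446, 0.372 and 0.375 to 3.56, 4.51 and 5.55 CPM (log2 fold change 3.45 ± 0.24, adjusted p = 1.8e-10). The receptor Notch3 rose by 0.56 ± 0.05. The coactivator Maml2 fell from 16.6, 18.4 and 15.8 to 8.02, 11 and 9.65 CPM (log2 fold change −0.83 ± 0.10, adjusted p = 9.0e-07), and Lfng, a glycosyltransferase that modifies Notch, fell by 0.81 ± 0.16.

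De novo DNA methylation genes rose in every MTCH2-/- line. Dnmt3l, the catalytically inactive cofactor, rose from 44.6, 32.8 and 50.2 to 424, 462 and 428 CPM (log2 fold change 3.37 ± 0.23, adjusted p = 3.2e-04). Dnmt3b rose from 42.7, 50.8 and 60.9 to 329.8, 429 and 312 CPM (log2 fold change 2.80 ± 0.17, adjusted p = 1.5e-04), and Dnmt3a rose from 78.1, 52.7 and 61.4 to 301, 338 and 263 CPM (log2 fold change 2.23 ± 0.19, adjusted p = 6.3e-04). All EpiLC libraries were several-fold above all ESC libraries. Tet2, a dioxygenase that oxidises 5-methylcytosine, fell from 430.4, 524 and 495 to 188, 248 and 260.3 CPM (log2 fold change −1.07 ± 0.13, adjusted p = 0.0021). Uhrf1, which guides maintenance methylation, fell by 0.62 ± 0.04, and the maintenance enzyme Dnmt1 did not pass the test (log2 fold change −0.03 ± 0.03, adjusted p = 0.46). In the list as a whole 7 of 16 measured members rose and 3 fell, with a median of 0.05. Among 30 genes of histone acetylation 10 rose and 10 fell (median 0.04), and no member passed 2-fold apart from the deacetylase Hdac7, which fell from 21.6, 23.6 and 20.8 to 9.85, 8.55 and 8.4 CPM (log2 fold change −1.29 ± 0.09, adjusted p = 1.1e-10).

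Junction and cadherin genes rose in 13 and fell in 8 of 24 measured members, with a median of 0.42. The splicing regulator Esrp1, which maintains epithelial isoforms, rose from 6.24, 6.05 and 10.6 to 56.9, 59.4 and 54.8 CPM (log2 fold change 2.93 ± 0.15, adjusted p = 8.6e-07). Podxl, a sialomucin of the apical membrane, rose from 23.7, 17.5 and 19 to 93.7, 71.1 and 76.9 CPM (log2 fold change 2.01 ± 0.06, adjusted p = 1.8e-16). Pcdh8, a protocadherin, rose by 3.54 ± 0.28 from less than 1 CPM. The keratin Krt8 fell from 43.1, 46.8 and 52.9 to 11.9, 11.5 and 14.8 CPM (log2 fold change −1.91 ± 0.15, adjusted p = 6.3e-06), and the claudin Cldn4 fell from 577, 491 and 576 to 248, 201 and 258 CPM (log2 fold change −1.22 ± 0.12, adjusted p = 4.5e-04). Thus members rose and fell past 2-fold within the same list.

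Matrix genes fell in 12 and rose in 8 of 26 members, with a median of −0.23. Fn1, fibronectin, fell from 4092, 4500.0 and 3925 to 1682, 1852 and 1629 CPM (log2 fold change −1.28 ± 0.04, adjusted p = 1.0e-14). The basement membrane linker Nid1 fell from 578, 777 and 633 to 135, 172 and 179.7 CPM (log2 fold change −2.03 ± 0.10, adjusted p = 2.4e-06), and the laminin chain Lama1 fell from 168, 160.0 and 170.0 to 47.9, 52.9 and 67.4 CPM (log2 fold change −1.58 ± 0.07, adjusted p = 2.2e-09). Collagens of basement membranes were among the members that rose. Col18a1 rose from 181, 136 and 162 to 654, 515 and 557 CPM (log2 fold change 1.85 ± 0.04, adjusted p = 4.8e-18), and Col4a1 rose from 41.2, 33.4 and 38.6 to 75.2, 85.9 and 102 CPM (log2 fold change 1.21 ± 0.09, adjusted p = 1.5e-07).

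Genes of mitochondrial fusion and fission changed little on priming without MTCH2: 3 of 21 measured members rose and 5 fell, none past 2-fold, with a median of 0.01, and 3 fell with DESeq2 and without line 3. The mitofusin Mfn1, which tethers outer membranes for fusion, fell from 162, 169 and 147 to 84.2, 92.2 and 87 CPM (log2 fold change −0.86 ± 0.05, adjusted p = 9.7e-12). Mief2, an adaptor that recruits the fission GTPase, fell from 28, 30.4 and 29 to 17.1, 19.2 and 18.3 CPM (log2 fold change −0.68 ± 0.07, adjusted p = 4.4e-08). March5, a ubiquitin ligase of the outer membrane, rose by 0.37 ± 0.04. The fusion GTPase of the inner membrane, Opa1, rose by 0.12 ± 0.04 (adjusted p = 0.02), a call that was lost without the replicate block (adjusted p = 0.094, with 0.0073 to 0.17 over 15 alternatives). Mtch1, the paralog of MTCH2, fell by 0.17 ± 0.04.

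Respiratory chain transcripts fell by small amounts. Of 37 nuclear genes, 25 fell and 1 rose, with a median of −0.20. Cox5a of complex IV fell the most, from 124, 131 and 117 to 63.4, 78.9 and 65.5 CPM (log2 fold change −0.85 ± 0.05, adjusted p = 9.1e-12). Uqcrb of complex III fell by 0.65 ± 0.06 and Ndufb10 of complex I by 0.51 ± 0.05. Of the 13 genes encoded by mitochondrial DNA, 7 passed the filter, and 5 of them fell, with a median of −0.11; without the replicate block 2 fell, and likewise with DESeq2, in MTCH2-/- libraries alone, with a block common to both genotypes and without line 2, and 3 fell without line 3. Among these mt-Co1, of complex IV, fell from 1660.2, 1941 and 1861 to 1562, 1573 and 1569.6 CPM (log2 fold change −0.21 ± 0.03, adjusted p = 3.0e-05). The 6 mitochondrially encoded genes that did not pass the filter had at most 8 counts in any library, against up to 147136 for mt-Co1. The cause was not tested. These genes add almost nothing to the share of counts from mitochondrially encoded genes. That share was 0.52% to 0.60% over the 6 MTCH2-/- libraries, against 1.41% to 2.11% in MTCH2 F/F cells. Among 21 measured genes of mitochondrial DNA maintenance 6 rose and 3 fell (1 with DESeq2 and without line 2), with a median of 0.02, and Tfam, which packages mitochondrial DNA, rose by 0.34 ± 0.04.

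In glycolysis 12 of 25 members rose and 6 fell, with a median of 0.06. Besides the lactate exporter named above, Pdk1, a kinase that holds back pyruvate dehydrogenase, rose from 20.4, 21 and 24.2 to 96.4, 106 and 82.6 CPM (log2 fold change 2.12 ± 0.09, adjusted p = 1.7e-09). The hexokinase Hk1 fell from 168, 178 and 163 to 69.2, 65.6 and 67.6 CPM (log2 fold change −1.33 ± 0.05, adjusted p = 9.0e-15). The glucose transporter Slc2a3 fell from 2629, 2354 and 2282 to 1723, 1539 and 1542 CPM (log2 fold change −0.60 ± 0.12, adjusted p = 0.014), a call lost when any 1 MTCH2-/- line was left out (adjusted p = 0.062 to 0.077, with 1.2e-12 to 0.077 over 15 alternatives). In the list of the TCA cycle and glutamine 7 of 31 members rose and 11 fell, with a median of −0.07. The risen members include genes of glutamine supply. Glul, glutamine synthetase, rose from 75.5, 85.6 and 78.5 to 139, 198 and 181 CPM (log2 fold change 1.10 ± 0.06, adjusted p = 1.2e-11), and the glutamine transporter Slc38a2 rose from 418, 429 and 459 to 825, 940.1 and 958 CPM (log2 fold change 1.06 ± 0.04, adjusted p = 4.4e-15).

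Cholesterol synthesis genes rose in 18 and fell in 2 of 25 members, with a median of 0.48. The lines were unequal here: the summed level of the list went from 2771 to 3153 CPM in line 1, from 3458 to 5132 CPM in line 2 and from 3554 to 5041 CPM in line 3. Lss, lanosterol synthase, rose from 114, 129 and 149 to 183, 359.8 and 357 CPM (log2 fold change 1.15 ± 0.18, adjusted p = 0.0056). Line 1 was the lowest EpiLC library of Lss. Without line 1, 22 members rose, and without the replicate block or with a block common to both genotypes 10 did. Ebp, a sterol isomerase of the same pathway, fell from 41.4, 44.7 and 40.8 to 18.2, 25.6 and 24.4 CPM (log2 fold change −0.91 ± 0.08, adjusted p = 3.5e-09).

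Lysosomal genes fell in 21 and rose in 3 of 28 members, with a median of −0.64. Gpnmb, a glycoprotein of lysosomes and melanosomes, fell from 1157, 646 and 741 to 293, 188 and 269 CPM (log2 fold change −1.74 ± 0.09, adjusted p = 4.2e-06). The cathepsin Ctsb fell from 503, 429.6 and 453 to 262, 213 and 234 CPM (log2 fold change −0.97 ± 0.04, adjusted p = 5.4e-14), and the cholesterol-binding Npc2 fell from 549, 484 and 444 to 262, 245 and 231 CPM (log2 fold change −0.996 ± 0.04, adjusted p = 3.4e-14). Line 1 was the highest in each of these genes in both states. Tfe3, a transcription factor of lysosomal genes, was among those that rose, from 96.7, 115 and 112 to 149, 193 and 174 CPM (log2 fold change 0.67 ± 0.04, adjusted p = 3.6e-11). Sqstm1, an autophagy receptor, rose by 0.33 ± 0.04.

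Genes of the integrated stress response, a set induced through ATF4, rose in 21 and fell in 4 of 26 members, with a median of 0.36. Slc7a11, the cystine transporter, rose from 5.35, 6.42 and 9 to 20.4, 28.9 and 28.1 CPM (log2 fold change 1.91 ± 0.10, adjusted p = 4.0e-12). Chac1, which degrades glutathione, rose from 27.4, 29.9 and 21.3 to 63, 73.6 and 55.9 CPM (log2 fold change 1.29 ± 0.06, adjusted p = 9.0e-13), and the arginine transporter Slc7a3 rose from 181, 198 and 170.0 to 381, 463 and 403 CPM (log2 fold change 1.18 ± 0.04, adjusted p = 5.0e-15). The members did not all move alike. Asns, asparagine synthetase, fell from 960.5, 1213 and 1112 to 479, 631 and 582 CPM (log2 fold change −0.96 ± 0.04, adjusted p = 2.8e-14), and Ddit3, the gene of CHOP, fell by 0.35 ± 0.06.

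Among p53 targets 9 of 25 rose and 11 fell (7 without the replicate block and with DESeq2), with a median of −0.02. The members of the Gadd45 family parted: Gadd45b fell from 23.8, 26.3 and 21.1 to 4.72, 3.57 and 4.97 CPM (log2 fold change −2.41 ± 0.13, adjusted p = 1.7e-10), and Gadd45a rose from 33.9, 34.5 and 41.3 to 83.9, 110.1 and 99.4 CPM (log2 fold change 1.42 ± 0.07, adjusted p = 2.4e-11). Cdkn1a, the gene of p21, fell from 315, 341 and 345 to 215, 187 and 208 CPM (log2 fold change −0.71 ± 0.05, adjusted p = 2.5e-10). In the BCL2 family and caspases 9 of 22 measured members rose and 6 fell (3 with DESeq2), with a median of 0.09. Bmf, a BH3-only protein, rose from 12.3, 9.44 and 7.98 to 32.3, 24.8 and 18.2 CPM (log2 fold change 1.34 ± 0.08, adjusted p = 2.1e-11), and Bcl2l11, the gene of BIM, rose by 0.89 ± 0.06. Cell cycle genes rose in 16 and fell in 8 of 32 members, with a median of 0.15, and here the D-type cyclins divided, since Ccnd3 fell from 128, 165 and 143 to 67.3, 75.1 and 69.3 CPM (log2 fold change −1.04 ± 0.05, adjusted p = 2.6e-13) while Ccnd2 rose as given above.

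Markers of other cell types were measured beside these results, and their part in them was not tested. Trophoblast markers fell in 9 and rose in 1 of 12 measured members of 17, with a median of −1.02, and their summed level went from 328 to 344 CPM in ESCs to 106 to 123 CPM in EpiLCs. Apart from Gata2 these include Krt7, at 10.5, 10.9 and 13.6 CPM in ESCs and 1.83, 1.52 and 2.22 CPM in EpiLCs (log2 fold change −2.65 ± 0.14, adjusted p = 2.6e-12), and Tfap2c, at 73.3, 94.8 and 87 CPM in ESCs and 23.9, 21.6 and 22.9 CPM in EpiLCs (log2 fold change −1.89 ± 0.25, adjusted p = 0.0034). The defining placental genes Prl3d1, Psg21 and Tpbpa had 0 counts in every library, and Plac1 had at most 7.

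Fibroblast feeder markers fell in 9 and rose in 7 of 21 measured members of 26, with a median of −0.28. DESeq2 called 4 risen members, and a stricter filter on low counts left 5 fallen and 4 risen. Their summed level went from 4090 to 4700 CPM in ESCs to 1768 to 1986 CPM in EpiLCs and most of it was Fn1, described with the matrix genes. Other defining fibroblast genes were detected: the fibulin Fbln1 had up to 2353 counts in a library and fell by 1.21 ± 0.06, the collagen Col1a1 had up to 343 and fell by 0.48 ± 0.11, and the collagen Col3a1 had up to 226 and fell by 1.196 ± 0.25. The members that did not pass the filter, Lum, Mgp, Prrx1, S100a4 and Twist2, had at most 10 counts in any library. Pdgfrb, a receptor of mesenchymal cells, fell from 14.3, 14.5 and 12.3 to 4.54, 3.67 and 4.39 CPM (log2 fold change −1.70 ± 0.15, adjusted p = 1.9e-08), and Thy1, a surface glycoprotein of fibroblasts and neurons, rose from 2.67, 2.09 and 1.93 to 12.5, 9.34 and 10.9 CPM (log2 fold change 2.28 ± 0.14, adjusted p = 1.6e-11).

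Primitive endoderm markers rose in 6 and fell in 5 of 18 measured members of 21 (3 fell under a stricter filter on low counts), with a median of 0.26 and a summed level of 1224 to 1300 CPM in ESCs and 1016 to 1192 CPM in EpiLCs. Sox7, an endoderm SOX factor, rose from 1.01, 1.68 and 2.14 to 13.6, 14.6 and 14.9 CPM (log2 fold change 3.19 ± 0.17, adjusted p = 3.1e-12). Gata4, which defines this lineage, fell by 0.57 ± 0.11, and Gata6 and Sox17 did not pass the test. Foxa2, Afp and Apoa1 had at most 9 counts in any library.

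In the mesendoderm list 2 of 14 measured members of 21 rose (0 under a stricter filter on low counts) and 4 fell (2 with DESeq2), with a median of −0.23. Gsc, a homeobox gene of the organizer, fell from 2.84, 5.91 and 3.48 to 0.134, 0.157 and 0.338 CPM (log2 fold change −4.21 ± 0.30, adjusted p = 2.4e-10). T, the gene of Brachyury, stood at 0.243, 0.558 and 0.696 CPM in ESCs and 0.223, 0.21 and 0.145 CPM in EpiLCs and did not pass (log2 fold change −1.29 ± 0.59, adjusted p = 0.073). In the neuroectoderm list 8 of 20 measured members of 25 rose and 4 fell (5 and 2 under a stricter filter on low counts), with a median of 0.22: Pax6 rose from 0.365, 0.233 and 0.161 to 1.96, 2.88 and 1.98 CPM (log2 fold change 3.09 ± 0.31, adjusted p = 3.7e-08) and Nkx6-2 fell from 13.7, 19 and 19.9 to 6.28, 5.14 and 5.79 CPM (log2 fold change −1.59 ± 0.14, adjusted p = 2.2e-08).

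Germline genes, many of which are silenced by promoter methylation in later development, rose in 11 and fell in 3 of 23 measured members of 25 (0 fell with DESeq2, and 1 under a stricter filter on low counts or without line 1), with a median of 0.26. Taf7l, a paralog of a general transcription factor, rose from 15.1, 7.58 and 8.09 to 33.5, 16.8 and 16.4 CPM (log2 fold change 1.11 ± 0.13, adjusted p = 2.3e-06), with line 1 on top. Genes of the 2-cell-like state, which mark a rare state of ESC cultures, rose in 9 and fell in 1 of 13 measured members of 21, with a median of 0.82, and most belong to multigene families whose reads the counting could split. Apart from Eif1a, the member that fell, with means of 240.3 and 223 CPM, the means of these genes were at most 3.10 CPM in either state. Usp17lc stood at 1.05, 1.4 and 0.964 CPM in ESCs and 3.3, 3.2 and 2.17 CPM in EpiLCs (log2 fold change 1.35 ± 0.27, adjusted p = 3.6e-04). DESeq2 called 2 risen members of this list, and a stricter filter on low counts left none.

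**Figure D4:**
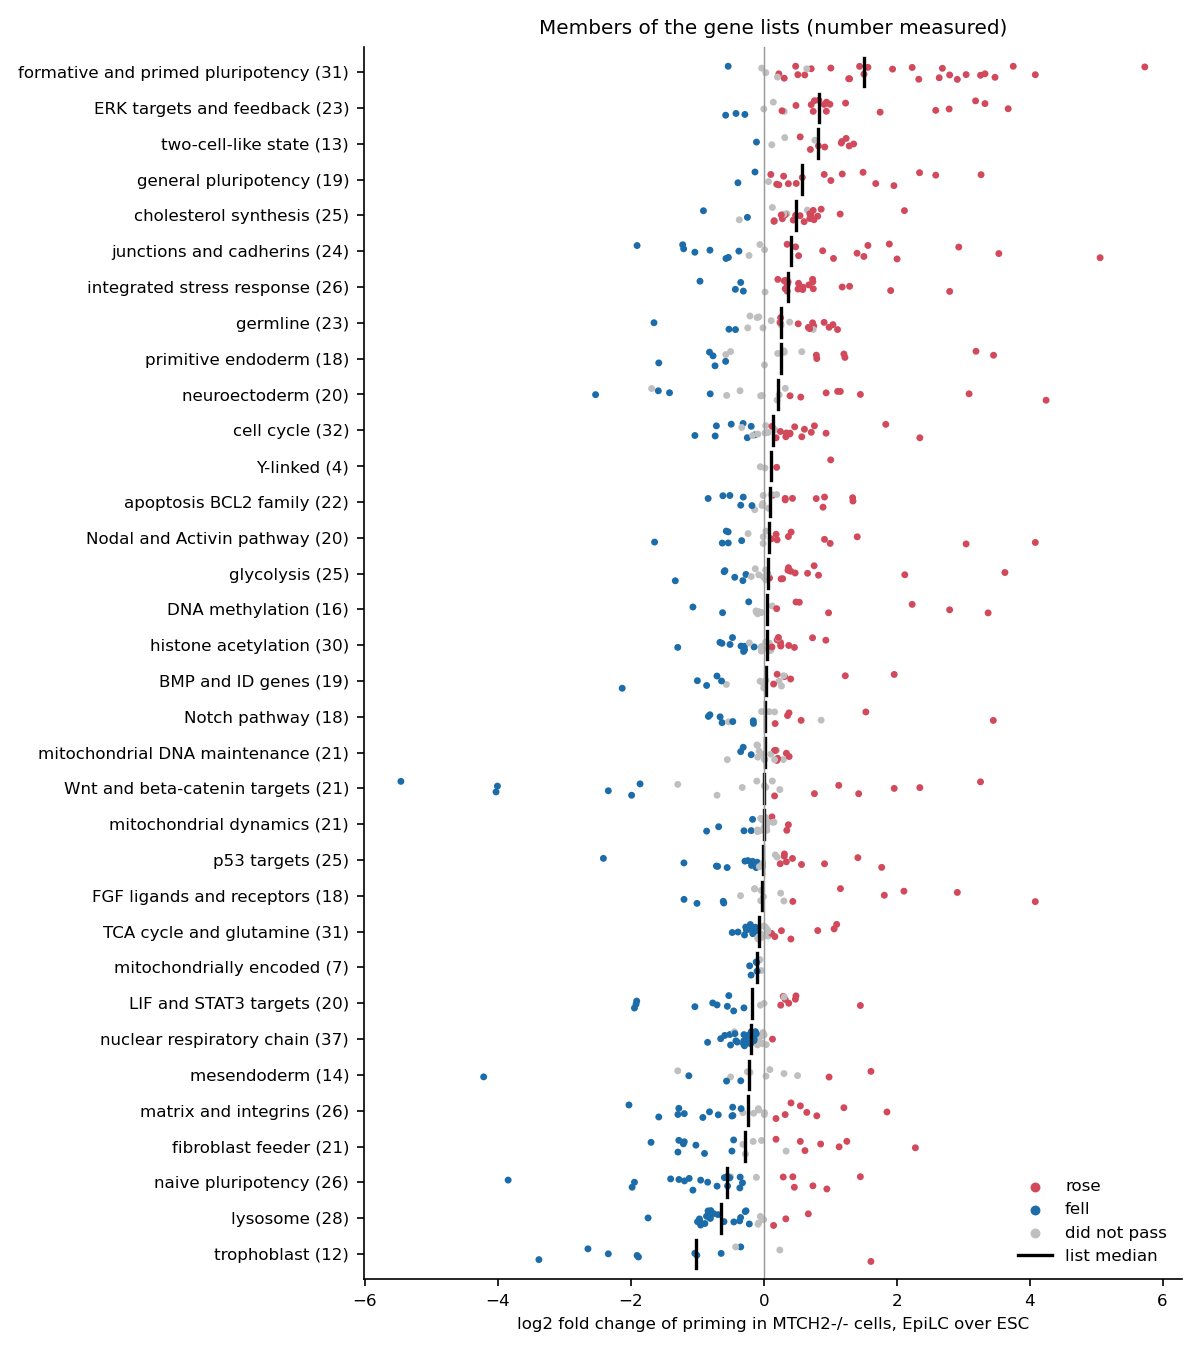
Fitted log2 fold change on priming of MTCH2-/- cells (x axis, log2) for each measured member (dots) of the gene lists (rows), ordered by the list median (bars). Formative and primed genes are at the top with a median of 1.51 and trophoblast markers at the bottom with −1.02, and members of most lists lie on both sides of 0.

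The libraries of the MTCH2 F/F lines are not among those compared above, but they entered the same fit and bear on its errors and adjusted p. The same medium change was measured in these lines. There 2311 genes rose (13.3%) and 2508 fell (14.4%) by at least 2-fold, and 6229 rose (35.9%) and 6226 fell (35.8%) with no fold minimum. The difference of the responses passed the test in 49.4% of all genes, with a smaller change in MTCH2-/- cells in 7261 genes (41.8%) and a larger one in 1313 genes (7.56%). Smaller and larger, here and below, compare the sizes of the log2 fold changes without their sign. Genes that moved in opposite directions in the genotypes are therefore counted by size as well. Of the 2153 genes past 2-fold in MTCH2-/- cells, 1012 changed by less than in MTCH2 F/F cells, 213 by more and for 928 the difference did not pass. Most kept their direction, since 935 of the 1090 risen and 940 of the 1063 fallen genes also moved that way in MTCH2 F/F cells, while 25 and 23 moved the opposite way.

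The lists differed in how much of the response was seen without MTCH2. In the naïve list 24 of 26 members fell in MTCH2 F/F cells. The median was −2.50 in these cells against −0.55 in MTCH2-/- cells, and the change was smaller in size, whatever its direction, in 21. In the formative list the medians were 2.97 and 1.51, and 22 of 31 changes were smaller. In the ERK list the medians were 0.87 and 0.83, with 7 smaller and 5 larger changes among 23, and for 11 the difference did not pass. Like medians thus did not mean that each member responded alike. Spry2, also of this list, moved in opposite directions in the genotypes, as given below. For Dusp6 the difference between genotypes (MTCH2-/- minus MTCH2 F/F) was 0.01 ± 0.09 on the log2 scale (adjusted p = 0.94), and for Dusp4 it was −0.03 ± 0.17 (adjusted p = 0.91). The lysosome list had medians of −0.81 and −0.64, with 18 smaller and 3 larger changes among 28. The nuclear respiratory chain had medians of −0.16 and −0.20. In the respiratory chain 5 of 37 changes were smaller and 1 was larger.

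Single genes of 1 pathway also differed in this respect. Dnmt3l had a difference of −0.39 ± 0.33 (adjusted p = 0.4), whereas Dnmt3b rose by less without MTCH2 (difference −2.18 ± 0.23, adjusted p = 0.0016) and so did Dnmt3a (−2.84 ± 0.27, adjusted p = 0.0013). Fgf5 rose by less (−3.50 ± 0.38, adjusted p = 7.4e-07), as did Otx2 and Pou3f1. The Wnt targets that fell did so by less in Cdx1 (difference 4.59 ± 0.61, adjusted p = 6.1e-06) and Sp5 (3.99 ± 0.73, adjusted p = 1.3e-04). In MTCH2 F/F EpiLCs, Cdx1 had raw counts of 0, 2 and 1 and Sp5 of 1, 0 and 2. In MTCH2-/- EpiLCs they were 19, 8 and 17 for Cdx1 and 4, 5 and 5 for Sp5. The size of both differences therefore rests on counts near 0. Notum, a secreted feedback inhibitor of Wnt, had log2 fold changes of 0.16 in MTCH2-/- and −4.21 in MTCH2 F/F cells (difference 4.38 ± 0.11, adjusted p = 7.2e-16).

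Some genes changed more, or the other way, without MTCH2. Lefty2 rose in each MTCH2-/- line and fell in MTCH2 F/F cells, where its means were 57.4 CPM in ESCs and 27.8 CPM in EpiLCs (difference 4.06 ± 0.31, adjusted p = 4.7e-04). Krt8, which fell by 1.91 without MTCH2, had a change of −0.56 on the log2 scale with it (difference −1.35 ± 0.26, adjusted p = 0.0025). Lpl, lipoprotein lipase, fell from 34.6, 22.8 and 21.9 to 12.4, 5.93 and 6.51 CPM, a log2 fold change of −1.69 against −0.04 (difference −1.65 ± 0.13). Gbx2 and Spry2, of the STAT3 list, rose without MTCH2 and had log2 fold changes of −0.59 and −0.65 in MTCH2 F/F cells.

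**Figure D5:**
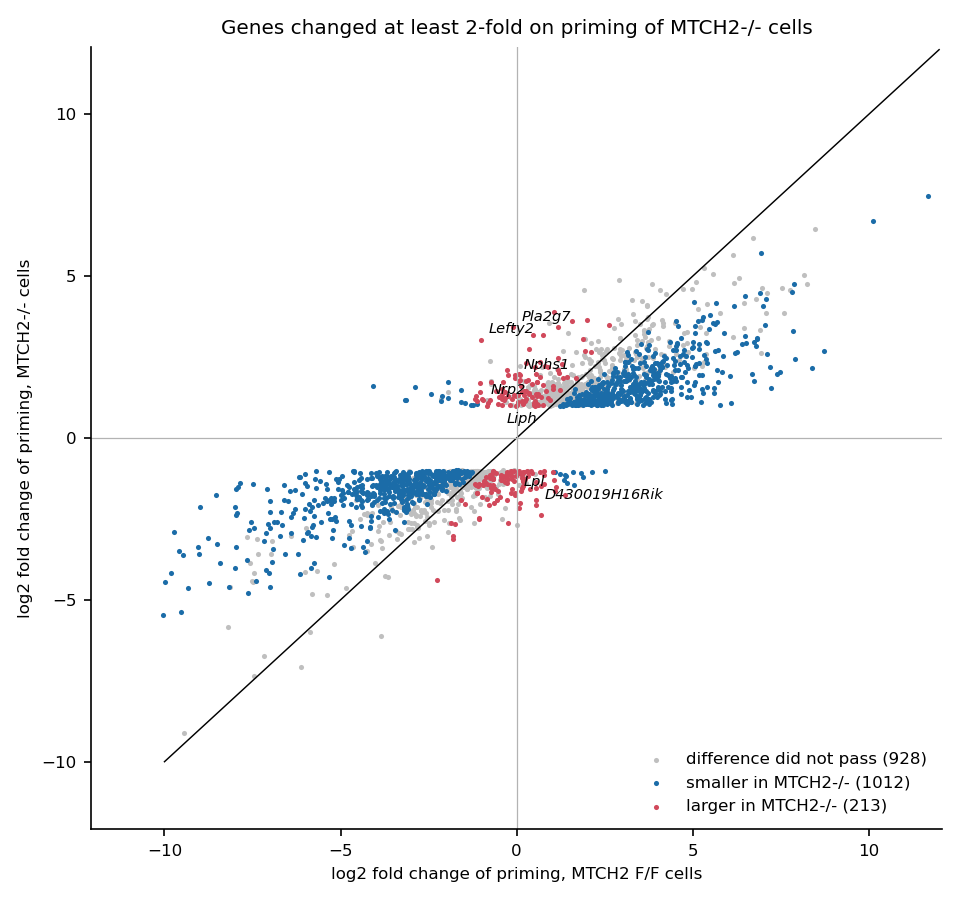
Log2 fold change on priming in MTCH2-/- cells (y axis) against that in MTCH2 F/F cells (x axis) for the 2153 genes that changed at least 2-fold in MTCH2-/- cells, with the diagonal marking equal change. Blue dots (1012) had a smaller and red dots (213) a larger change in MTCH2-/- cells, by size without sign. Grey dots (928) did not pass, and named red dots include Lefty2 and Pla2g7 above and Lpl below the diagonal.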

How the data were processed

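Poly-A RNA of 12 cultures was sequenced from single ends, and 6 libraries, of MTCH2-/- ESCs and EpiLCs, carry this report. The authors aligned reads with TopHat 2.0.10 to GRCm38 and assigned them to genes with HTSeq 0.6.1p1, and the deposited table gives raw counts, as integers for each gene symbol. Whether HTSeq counted by strand was not given in the sources used here, and overlapping or antisense genes can therefore share reads. The authors' normalized columns (12) and a table of their own comparisons, with log2 fold changes and adjusted p-values, were not used.

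Counts were analysed with edgeR 4.0.16 in R 4.3.3. Genes that passed its filter on low counts (17369 of 46477) were scaled by TMM and fitted over the 12 libraries with a term for each of the 6 lines and a priming term for each genotype, which leaves 4 residual degrees of freedom. This pairs libraries by clone number. Tests were robust quasi-likelihood F tests with Benjamini-Hochberg adjustment over all genes tested (threshold 0.05), and genes counted as changed 2-fold also passed that fold. SE was taken as the absolute log2 fold change over the root of F. The script was tested on simulated counts. Counts per library were 17453328 to 24068523, and no libraries of a group agreed within sampling noise (21.8% of genes or more differed by a chi-square test).

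Of 729 genes in 34 lists, 676 passed the filter. The named genes were taken by a rule: up to 15 risen and 15 fallen genes with the largest changes past 2-fold, at 10 CPM or more and without overlap, up to 4 members per list, by size of change, at 1 CPM or more, up to 3 called against the direction of their list, up to 8 with a larger change in MTCH2-/- cells, up to 6 called in opposite directions, Mtch2 and Mtch1, and the genes of the study's qPCR. The markers used to check the labels were also listed. Results of some genes are not reported here. Members and lists were chosen with earlier results of these data known. Zic2, Sox3, Prdm14, Tbx3 and Zfp42 are such markers, and Axin2, Cdx2, Rnf43, Dppa2, Fgf4, Klf5, Ier2, Ier3, Egr1, Socs3, Smad7, Skil, Dnmt1, Gata4, Gata6, Sox17, Notum, Dll4, Jag1, Jag2, Tdgf1, Foxh1, Gdf3, Acvr1b, Acvr2b, Furin, Pmepa1, Fbln1, Col1a1 and Col3a1 were named after their values were seen. Fbn1, Twist1, Col6a2 and Col5a1 were also named after their values were seen. Positions are from GENCODE vM21 and promoters from RefSeq on GRCm38.p6. Alternatives were no replicate block, a block common to both genotypes, MTCH2-/- libraries alone, RLE scaling, library totals, omission of mitochondrially encoded genes, DESeq2 1.42.0, no filter, a stricter filter (5 CPM in 3 libraries), and omission of each line.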

Additional observations from a re-analysis of the deposited data

Results flagged for a closer look

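The responses of the genotypes differed, by the test of the difference itself, in 7261 genes with a smaller and 1313 with a larger change in MTCH2-/- cells, by size without sign. In the genotypes 693 genes passed the test in opposite directions. Of the 693, 48 changed at least 2-fold in MTCH2-/- cells and 34 did so in both genotypes. The differences below are of log2 fold changes on priming, MTCH2-/- minus MTCH2 F/F, and are values only.

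Among the named genes that changed more in MTCH2-/- cells, the largest difference was that of Lefty2, at 4.06 ± 0.31 (adjusted p = 4.7e-04), with log2 fold changes of 3.04 in MTCH2-/- and −1.02 in MTCH2 F/F cells. Pla2g7 differed by 3.52 ± 0.91 (adjusted p = 0.01). Nrp2, a semaphorin coreceptor, differed by 2.14 ± 0.15 (adjusted p = 3.8e-10), and it rose from 13.2, 14.4 and 20.1 to 31, 34.4 and 41.7 CPM without MTCH2 and fell with it (1.18 and −0.96).

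Nphs1, the gene of nephrin, differed by 1.97 ± 0.27 (adjusted p = 0.0013), from 12.8, 12.2 and 8.57 to 68.9, 35.5 and 27.5 CPM in the MTCH2-/- lines, with line 1 well above the others after priming. Liph, a membrane phospholipase, differed by 1.56 ± 0.26 (adjusted p = 8.8e-04) and rose from 16.7, 13.5 and 5.46 to 26.7, 26.9 and 17.8 CPM. Dusp27, an atypical dual-specificity phosphatase, differed by 1.54 ± 0.08 (adjusted p = 7.2e-12), and Pnp, purine nucleoside phosphorylase, by 1.53 ± 0.09 (adjusted p = 4.0e-11), and both rose without MTCH2 (1.18 and 1.29) and fell with it (−0.36 and −0.24).

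In the other direction, Lpl differed by −1.65 ± 0.13 (adjusted p = 3.6e-09) and D430019H16Rik by −2.65 ± 0.19 (adjusted p = 4.6e-10). D430019H16Rik fell from 25, 13.9 and 11.9 to 5.35, 3.62 and 2.94 CPM without MTCH2 and rose with it (−2.08 and 0.56). None of these named differences lost its call under any alternative that was run.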

How the results depend on the processing

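Of the 208 named genes, 26 lost their call for priming of MTCH2-/- cells under at least 1 alternative, 4 gained one (Esrrb, Ppargc1a, T and Tbx6) and 0 changed direction. The difference between genotypes lost its call in 36 of them and gained one in 17 under at least 1 alternative. A stricter filter on low counts left 545 risen and 545 fallen genes past 2-fold, against 1090 and 1063, since it tests fewer weakly expressed genes. For the replicate block, the fit without it gave 1037 risen and 1040 fallen genes past 2-fold, and it shared 2066 of its 2077 with the paired fit. With no fold minimum 3481 rose and 3852 fell without the block. Genes with a larger change in MTCH2-/- cells numbered 664 without the replicate block and 755 with DESeq2, against 1313, and the cause was not tested. DESeq2 called 940 risen and 883 fallen genes past 2-fold. Leaving out each line in turn gave 1057 to 1147 risen and 1036 to 1166 fallen genes past 2-fold. The other counts over all genes stayed within 1.5 times. Of 68 counts of list members that rose or fell, 25 moved by over 1.5 times under at least 1 alternative, 8 of them counts of 3 or fewer. The calls for Klf4 and Esrrb depend on the setting, and the cause was not tested. Precision is limited by 3 lines a genotype and 4 residual degrees of freedom. Scaling moved the median of all genes by less than 0.1 on the log2 scale.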

Other observations

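Genes of the X chromosome were not spread evenly over the directions. Of 671 genes tested there, 72 rose (10.7%) and 15 fell (2.24%) by at least 2-fold on priming of MTCH2-/- cells, against 6.28% and 6.12% of all genes. On chromosome 14 10.1% of genes rose, and on chromosome 11 8.62% fell. These are descriptions with no test, since neighbouring genes are not independent.

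Y-linked genes kept the order of the lines through priming. Eif2s3y, a translation factor, stood at 38.7, 62 and 1.87 CPM in ESCs and 38.5, 54.5 and 2.94 CPM in EpiLCs, and Ddx3y, a helicase, stood at 81.9, 127 and 19.6 CPM in ESCs and 92.2, 117 and 19.4 CPM in EpiLCs, so that line 3 was the lowest in each state.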
